A study of Zea mays with 6 samples.

Results

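Pre-meiotic cells cut by laser from 1 mm anthers of a mac1 heterozygote were set beside pre-meiotic cells cut from 700 µm anthers of the maize inbred line W23. These are 3 of the 6 RNA samples of the study, chosen by the anther length and genotype on their labels: 1 heterozygote sample in Cy3, W23 replicate 1 in Cy3 and W23 replicate 2 in Cy5. A further label gives 701 µm for W23 replicate 2. The other samples were pre-meiotic cells of mac1 mutant anthers of 1 mm, in Cy5 on the heterozygote's array, and 2 samples of whole W23 anthers of 700 µm, 1 on each W23 array. The series' design text treats the heterozygote as the wild type for the mutant, and it names no comparison of heterozygote with W23. The labels give neither the line that carried mac1 nor the mac1 allele, and how cells were chosen for dissection and how many plants were pooled are not given in the sources used here.

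Anther lobes hold a central group of archesporial cells, the germ line of the anther, inside somatic wall layers. Archesporial cells multiply while the anther lengthens, enlarge into pollen mother cells and then enter meiosis, so anther length is used in maize as a measure of stage. MAC1 is a small secreted protein that limits the number of archesporial cells, and mac1 mutants form too many of them. The study's title links the gain of meiotic fate in maize to hypoxia, that is, low oxygen.

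Anther length, genotype, slide and scan all ran along this comparison and cannot be told apart, and the heterozygote was sampled once. All differences below are therefore descriptions with no test, and the gap between the W23 samples, which differ in dye as well as in replicate, is the only measure of error. The signal was weaker on the mac1 array: the 75th percentile of the scanner's processed signal was 440 units in heterozygote cells, against 1030 and 1160 units in W23 replicates 1 and 2. Levels are therefore given as log2 of the processed signal relative to that percentile of each sample, and compare samples at one probe, not one probe with another. Probes well above background, as called by the scanner software, made up 72.9% in heterozygote cells, against 73.9% and 77.7% in the W23 samples. The repeated spots of the spike-in controls had a median CV of 5.05% in heterozygote cells, against 16.1% in W23 replicate 1 and 6.03% in replicate 2, so the W23 sample of the same dye was the noisiest of the 3. Precision is limited throughout by the small number of arrays.

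AM1 (ameiotic1), a coiled-coil protein that maize cells need to enter meiosis, was the only marker of germ cells or of any other anther cell type with a probe of its name. Its first probe had a level of -0.66 in heterozygote cells, against -0.90 and -1.56 in W23 replicates 1 and 2, and -2.60 and -2.89 in whole anthers. The other probes had -0.62 and 0.81 in heterozygote cells, against -0.33 and -1.08 for one and -0.20 and -0.16 for the other in the W23 samples. In whole anthers these probes stood at -4.68 and -4.46 and at -4.12 and -4.30. All 3 dissected samples thus lay above both whole-anther samples on every AM1 probe. No probe carries the name of a marker of the tapetum, the wall layers, the epidermis or the vascular tissue, so the purity of the dissected cells was not tested.

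The AM1 probes did not give one answer on heterozygote against W23 cells. The brightest of them in heterozygote cells was higher there by 1.01 against W23 replicate 1 and by 0.97 against replicate 2, close to 2-fold. The W23 samples differed by 0.04 on it. Against replicate 1 its difference stayed between 0.74 and 1.26 over the processing settings. The other probes gave 0.24 and 0.89, and -0.30 and 0.46, against replicates 1 and 2. The last changes sign between the W23 samples, and the first turned to -0.04 when the arrays were scaled on the spike-in controls, a choice made after seeing the data. AM1 corresponds to LOC100271891 in the reference table. As the RNA is a pool, fewer cells of a type and less RNA per cell cannot be told apart for this or any other transcript.

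Cohesin is the ring that holds sister chromatids together. None of its probes well above background in all 3 samples differed past 2-fold from both W23 samples. Of 17 probes with names of AM1, cohesin or shugoshin, 14 passed detection (well above background) in all 3 samples. Against both W23 samples, 0 reached 2-fold higher and 0 reached 2-fold lower. Over all 26708 probes with that detection, 10.5% reached 2-fold higher and 8.14% reached 2-fold lower. In the list 6 probes lay above and 5 below both W23 samples, and the median difference was -0.07 against replicate 1 and 0.13 against replicate 2, beside 0.16 and 0.20 over all probes. Of the 13 cohesin probes 10 were measured, with 4 above and 4 below both W23 samples. With so few probes the absence of calls says little beside these shares. ZmSMC1, a core subunit of the ring, had levels of 1.64 and 0.81 on its probes in heterozygote cells, against 1.92 and 1.33 in W23 replicate 1 and 1.90 and 0.89 in replicate 2. ZmSMC3, the other core subunit, lay between 0.51 and 3.53 on 4 probes in heterozygote cells, against 0.49 to 3.04 in replicate 1 and 0.38 to 3.30 in replicate 2. Its differences ran from -0.32 to 0.75 and from -0.20 to 0.90, and probes of this gene gave both signs.

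ZmRAD21, the kleisin that closes the ring, was not measured well. Of its 7 probes, 3 were not well above background in any of the 3 dissected samples, 1 lay near background at -4.74 in heterozygote cells, against -4.79 and -5.81 in W23 cells, and the brightest gave opposite signs. That brightest probe had -0.60 in heterozygote cells, between -1.73 in W23 replicate 1 and 0.09 in replicate 2, so the W23 gap was larger than either difference. The remaining probes had -4.18 and -2.69 in heterozygote cells, against -3.83 and -2.52 in replicate 1 and -4.30 and -2.23 in replicate 2. ZmSGO1, a shugoshin that protects cohesion at centromeres, had -0.94 in heterozygote cells, against -0.78 and -0.50 in W23 cells, and its probe was lower by less than 2-fold in every processing tried. The plot of these probes shows how closely the dissected samples sit.

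**Figure D1:**
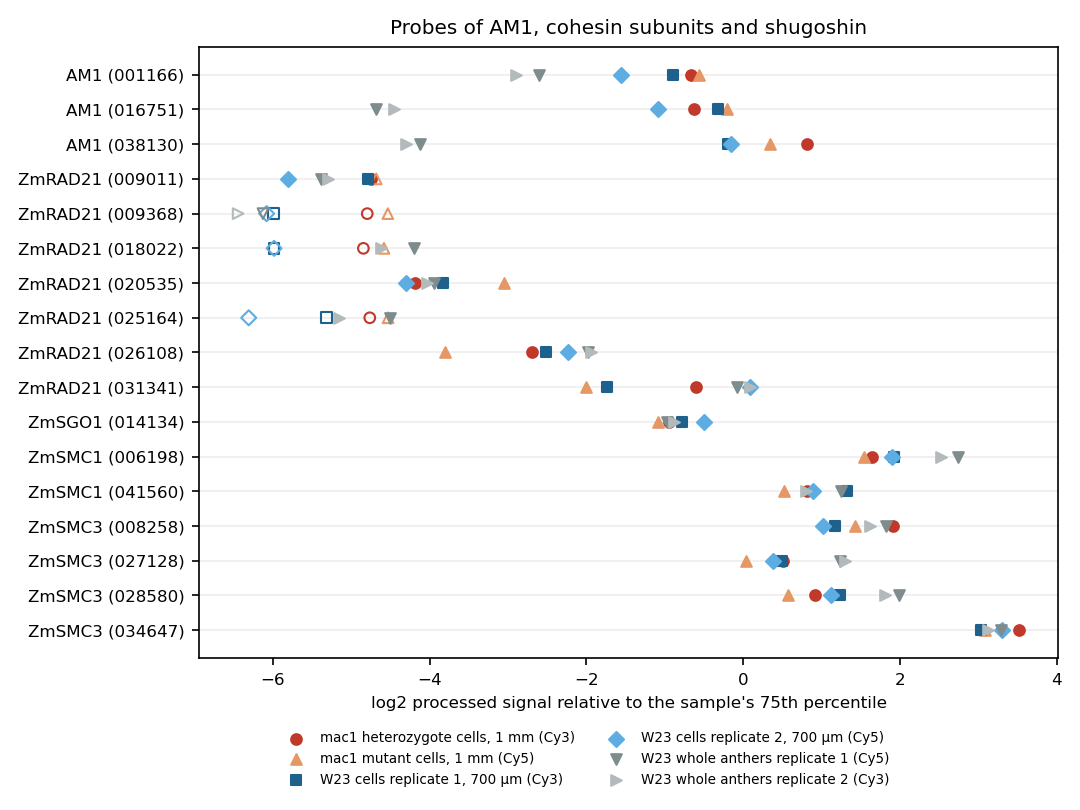
Levels of the 17 probes named AM1, ZmRAD21, ZmSGO1, ZmSMC1 and ZmSMC3 in the 6 samples, as log2 processed signal relative to each sample's 75th percentile; the end of the probe number is in brackets and open symbols were not well above background. The heterozygote (red circles) lies within 2-fold of at least 1 W23 sample (blue squares and diamonds) on all 14 probes measured in the 3 dissected samples, and AM1 is higher in dissected cells than in whole anthers (grey).

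Of the other probes with a gene-like name, those of the MuDR type carry names of the autonomous element of the Mutator transposon family, whose mudrA gene encodes the transposase. The probe MUDRA-21 was the only one of these 4 past 2-fold, where 8.14% of all probes lay as far below, with a level of -0.20 in heterozygote cells, against 0.83 and 1.39 in W23 replicates 1 and 2. It was lower by 2.04-fold and 3.01-fold, and its differences ran from -1.59 to -0.92 over the processing settings, so it falls just short of 2-fold in some. MUDRA and MUDRB changed sign between the W23 samples, and MUDR-TIRA was higher by 0.89 and 0.56. One of the 3 probes with a name beginning ZMtuc, which the files do not describe, had 1.76 in heterozygote cells, against 0.51 and 0.53 in W23 cells, and was higher by 2.37-fold and 2.34-fold. Its log2 difference fell short of 2-fold with normexp (0.82), in the authors' deposited table (0.83) and with spike-in scaling (0.97). Another of the 3 is a second probe of the same sequence. That probe was not well above background in heterozygote cells, at -4.65, or in W23 replicate 1, at -5.32, and read -5.63 in replicate 2. ZMATP70 had 4.65 in heterozygote cells, against 4.39 and 4.22 in W23 cells. Its difference against replicate 1 was 0.27, but -0.31 under quantile normalization, -0.48 with normexp, -0.09 without dye normalization, -0.23 in the authors' deposited table and -0.01 with spike-in scaling, so it has no settled direction. AI676903, which corresponds to LOC100279569, had 1.56 in heterozygote cells, between 1.31 and 1.65 in W23 cells.

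The large differences lay elsewhere, on probes that the array names only by a TC number, for a cluster of expressed sequence tags, or by a single sequence accession. The clearest of them set both samples of mac1 material apart from all 4 W23 samples. TC294498 had a level of 6.53 in heterozygote cells, against -4.60 and -5.66 in W23 replicates 1 and 2, where it was not well above background. In scanner units that was a processed signal of 40521 in heterozygote cells, against 42.4 and 22.9 in W23 cells. Mutant cells, in the other dye, had 35531 units. Whole W23 anthers had 48.0 and 100.4 units, faint but well above background in both samples. On the processed signals the heterozygote was 2240-fold above W23 replicate 1 and 4673-fold above replicate 2. Normexp background correction with an offset of 50, which draws dim probes together, gave a log2 difference of 6.39 against replicate 1. The bright samples were the Cy3 and Cy5 signals of the same array. The dim ones, dissected cells and whole anthers in both dyes, all lay on the other slide. Array, slide, genotype and anther length thus cannot be told apart for this split.

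Another 4 transcripts were bright in heterozygote cells and not well above background in both W23 samples. TC312285 had 2.80, against -6.15 and -6.36 in W23 replicates 1 and 2, 495-fold and 570-fold higher. TC284911 had 1.96, against -6.41 and -6.03, 333-fold and 255-fold higher. CF040546 had 2.29, against -5.56 and -6.20, 230-fold and 359-fold higher. All of them were bright in mutant cells too, at 3.80, 1.76 and 2.08, and at or below -5.65 in whole anthers. Even so, TC312285 was well above background in both whole-anther samples and CF040546 in replicate 1, while TC284911 was in neither. TC310782 had 0.38 in heterozygote cells, against -6.38 and -6.24 in W23 cells, 108-fold and 97.9-fold higher. It had 0.79 in mutant cells and -6.39 and -6.57 in whole anthers. These folds too hold for the processed signals only: with normexp the log2 differences against replicate 1 were 3.37 for TC312285, 2.57 for TC284911, 3.01 for CF040546 and 1.79 for TC310782.

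Over the array, 72 probes of 72 sequences lay at least 8-fold higher in both mac1 samples than in every one of the 4 W23 samples, 0.283% of the 25413 probes well above background in heterozygote and mutant cells. The heterozygote and the mutant differed by less than 2-fold on 60 of them. On 26 no W23 sample was well above background, on 30 some were, and on 16 all were. In the other direction 5 of the 27877 probes well above background in all 4 W23 samples lay at least 8-fold lower in both mac1 samples, each of them dim in at least 1 of the mac1 samples. The directions do not have equal room: the lowest level well above background was -5.00 in heterozygote cells, against -6.60 and -6.38 in W23 cells, so a transcript missing from the mac1 samples shows a smaller fold. At 2-fold the counts were 1227 higher (4.83% of the 25413) and 572 lower (2.05% of the 27877). Each set was detected in the samples where its probes are high, so these counts are not compared.

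**Figure D2:**
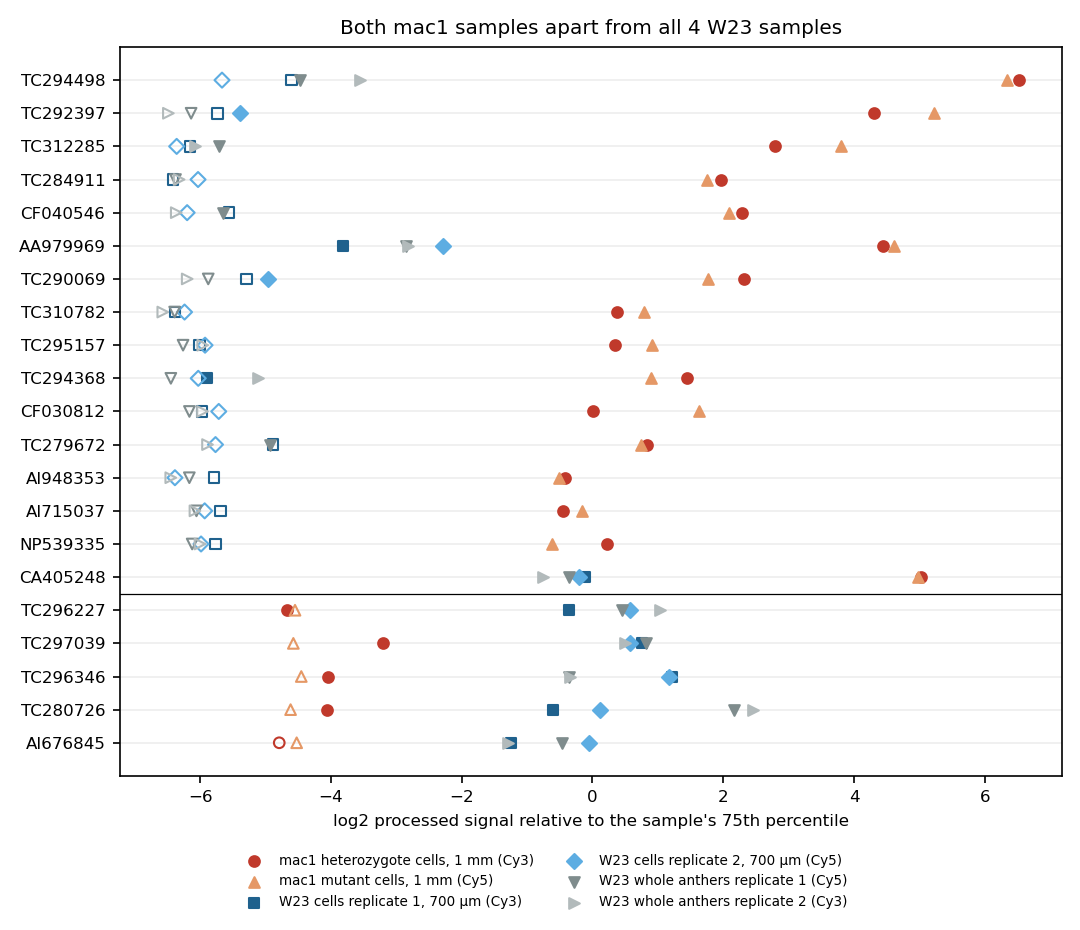
Levels of the 16 sequences with the widest gap by which both mac1 samples lie above all 4 W23 samples (above the line), and of the 5 lying at least 8-fold below (under it), as log2 processed signal relative to each sample's 75th percentile; open symbols were not well above background. TC294498 reads 6.53 in the heterozygote and 6.34 in the mutant, with no W23 sample above -3.56.

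Of the 72 sequences higher in both mac1 samples, 6 had a second probe, and 0 of these second probes showed the 8-fold split. On 3 of them (CK327439, TC280485 and TC308683) neither heterozygote nor mutant cells were well above background, and 2 showed the split at 2-fold. TC305857 had 1.87 and 2.05 on its probes in heterozygote cells, against -2.15 and -0.81 in W23 replicate 1 and -1.74 and -1.43 in replicate 2, so both were higher. TC295157 had 0.35 on the probe in the plot, against -6.01 and -5.92 in W23 cells, but 0.80 on its other probe, between 1.78 in W23 replicate 1 and 0.52 in replicate 2. Among all sequences with several probes, 390 of 2227 probes were at least 2-fold different against both W23 samples. Each was paired with every other probe of its sequence, which gave 483 pairs, so a probe can count more than once. The other probe lay on the same side of both W23 samples in 267 pairs (55.3%) and on the opposite side in 132 (27.3%). In 92 (19.0%) it was at least 2-fold different the same way, where 10.5% of all probes reached 2-fold higher and 8.14% lower. For TC names 63.0% of pairs lay on the same side and 20.5% on the opposite side, and for names beginning MAGI 40.7% on each. MAGI4_38589 alone has 16 probes, with 2 higher and 2 lower at 2-fold, and so weighs heavily among the MAGI pairs. How often any probe lies on a given side of both W23 samples was not counted, so nothing is read from the same-side and opposite-side shares.

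Of the probes well above background in all 3 samples, the 12 sequences furthest above both W23 samples were higher by 4.21 or more on the log2 scale. AA979969 led, with 4.45 in heterozygote cells, against -3.81 and -2.28 in W23 replicates 1 and 2, 306-fold and 107-fold higher, and 4.61 in mutant cells. CA405248 had 5.02, against -0.11 and -0.21, and 4.98 in mutant cells, with whole anthers at -0.35 and -0.76. For both, heterozygote and mutant were nearly equal and every W23 sample lay below them. TC313658 had 3.26 in heterozygote cells, against -4.08 and -2.70 in W23 cells, but was higher still in mutant cells at 5.80 and brighter in whole anthers, at -0.19 and 1.46, than in W23 cells. That whole-anther pattern was seen on this probe only: the other probe of TC313658 had -3.13 in heterozygote cells, against -6.54 and -6.29 in W23 cells, and was not well above background in whole anthers, at -6.50 and -6.62.

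Other sequences among the 12 had other patterns across the series. TC280903 was high in heterozygote cells only, with 1.59, against -3.65 and -3.88 in W23 cells, -4.24 in mutant cells, where it was not well above background, and -4.78 and -5.37 in whole anthers. TC296444 was low in W23 cells only, with 1.54 in heterozygote cells, against -4.30 and -2.87 in W23 cells, 2.50 in mutant cells and 1.92 and 1.96 in whole anthers. TC296066 had 4.96 in heterozygote cells, against 0.57 and -0.62 in W23 cells, with 1.96 in mutant cells. TC302397 had 2.95, against -1.38 and -2.75, with 0.15 in mutant cells. In the last 2 the W23 samples were over 1 log2 unit apart, a gap well under the difference. The remaining sequences were TC289319, CF244398, TC285513, TC310306 and TC303499, and in all of these the mutant also lay above both W23 cell samples.

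The 12 sequences furthest below both W23 samples were lower by 3.38 or more. TC296346 had -4.05 in heterozygote cells, against 1.21 and 1.17 in W23 replicates 1 and 2, 38.5-fold and 37.2-fold lower, and -4.45 in mutant cells, where it was not well above background. In whole anthers it stood at -0.36 and -0.34, so all W23 samples lay above both mac1 samples. TC306453 had -3.96, against 0.82 and 0.94, with -2.61 in mutant cells. TC280726 had -4.06, against -0.60 and 0.11, with -4.62 in mutant cells and higher levels in whole anthers, at 2.16 and 2.46.

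For other lowered sequences the mutant lay nearer to W23 than to the heterozygote. TC301124 had -3.47 in heterozygote cells, against 0.31 and 0.26 in W23 cells, with -0.72 in mutant cells. TC315092 had -4.57, against -0.85 and -1.09, with -1.83 in mutant cells. CO440130 had -3.68, against 0.69 and 0.22, with -1.39 in mutant cells. TC304198 had -4.37, against -0.96 and -0.75, with -2.27 in mutant cells. The heterozygote was the lowest of the 6 samples for each of these, and also for TC306453, TC296227, TC301781, AI920659 and CD001375. For TC296346, TC297039 and TC280726 the mutant read lower, where it was not well above background. The other sequences (TC296227, TC297039, TC301781, AI920659 and CD001375) lay between -4.66 and -2.41 in heterozygote cells, against -0.98 to 1.21 in W23 cells. Some probes were well above background in both W23 samples but not in the heterozygote. Of these, TC300883 had -4.92 in heterozygote cells, against -0.24 and -0.40 in W23 replicates 1 and 2, 25.6-fold and 22.9-fold lower. Its other probe read -0.14 in heterozygote cells, against -0.88 and -0.62, and was higher, so the probes of this sequence disagree. On the processed signals AI670427 was 19.4-fold lower than W23 replicate 1 and 19.6-fold lower than replicate 2. In the same order DR793214 was 19.7-fold and 17.5-fold lower, AI676845 11.6-fold and 26.7-fold, and TC294247 14.6-fold and 13.5-fold. With normexp the log2 differences of these 4 against replicate 1 were -0.93, -0.53, -0.62 and -0.68, all short of 2-fold, and that of TC300883 was -1.25.

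**Figure D3:**
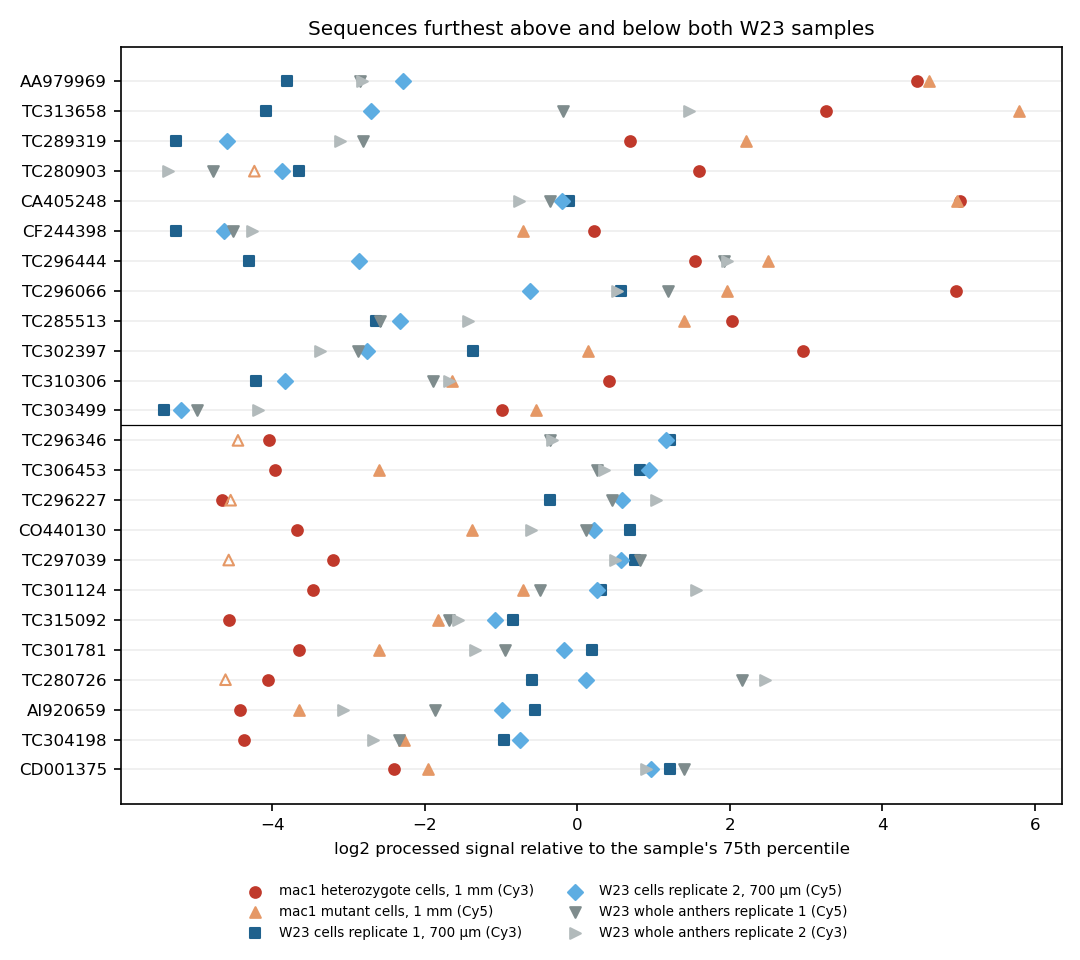
Levels in the 6 samples of the 12 sequences furthest above (upper block) and the 12 furthest below (lower block) both W23 samples, as log2 processed signal relative to each sample's 75th percentile; open symbols were not well above background. The heterozygote (red circles) is clear of both W23 samples (blue) in all 24, while the mutant (orange triangles) sits beside the heterozygote for some, such as CA405248, and beside W23 for others, such as TC280903.

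All 24 sequences kept their direction in every processing that gave them a value, with 12 of them holding one in the authors' deposited table. Their size did not: with normexp background correction and an offset of 50, which draws dim probes together, the differences against replicate 1 shrank to between 0.43 and 4.13, and 17 of the 24 were still at least 2-fold. CA405248, bright in the mac1 samples and moderate in W23, moved least, with differences between 4.0 and 5.24. CF244398 moved most, with 5.48 against 0.43.

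Of the 26708 probes well above background in all 3 samples, 2792 (10.5%) lay above both W23 samples by 2-fold or more in heterozygote cells, and 2173 (8.14%) lay below both by as much. At 4-fold there were 335 (1.25%) and 235 (0.88%), and at 8-fold 58 (0.217%) and 25 (0.0936%). With probes detected on 1 side included, 4980 (15.3%) of 32562 were higher and 2592 (7.96%) lower at 2-fold, and 1074 (3.3%) and 342 (1.05%) at 4-fold. Besides the probes detected in all 3 samples, these include 1316 detected in the heterozygote only, 2596 in the heterozygote and 1 W23 sample, and 1942 in both W23 samples only. Background itself reads higher in the heterozygote on this scale: the 12 control features named RC, not well above background in any of the 3 samples, had a median level of -4.79 in heterozygote cells, against -5.97 and -6.20 in W23 cells. An unexpressed probe can thus count as higher, and nothing is read from the split of these counts. Against W23 replicate 1 alone, in the same dye, 7637 (23.5%) were higher and 4034 (12.4%) lower, and 4715 (17.7%) and 3332 (12.5%) of the probes detected in all 3 samples. Which direction held more probes depended on the scaling. With all 32562 probes 65.8% of those past 2-fold were higher, but 49.6% were after quantile normalization, 44.1% after normexp, 46.1% without the scanner's dye normalization and 73.8% with median scaling. The median difference over these probes was 0.26 against replicate 1, and 0.04 after quantile normalization.

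The W23 samples differed less from each other than the heterozygote did from either. The SD of the differences was 1.01 for heterozygote minus W23 replicate 1 and 0.985 for heterozygote minus replicate 2, against 0.662 for W23 replicate 2 minus replicate 1. At least 2-fold differences were 30.1% and 28.7% of probes for the heterozygote, against 11.2% between the W23 samples. The W23 arrays shared a slide and a scan and the heterozygote's did not. Both heterozygote differences use the same heterozygote sample, so their likeness in the plot of one against the other is not independent support.

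**Figure D4:**
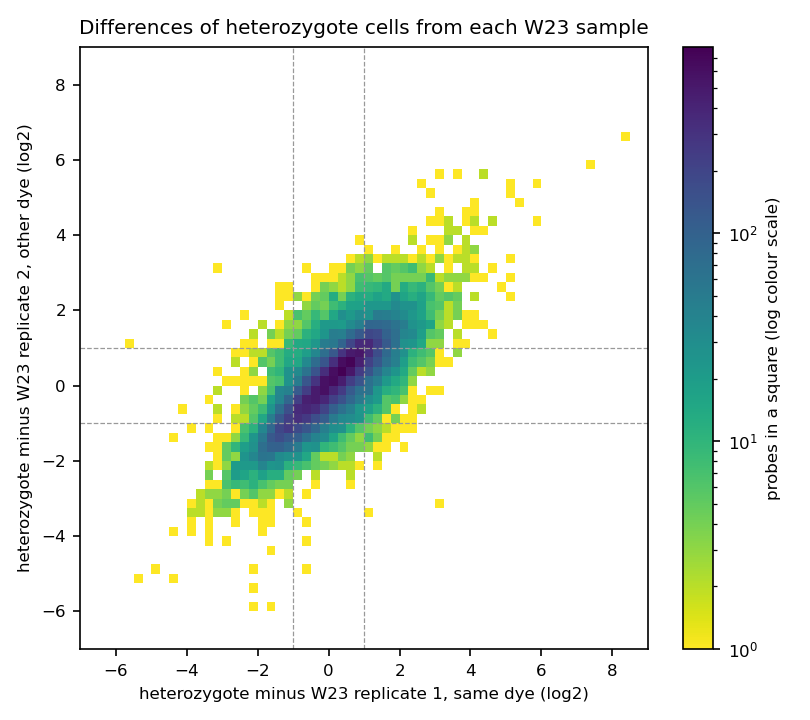
Difference of heterozygote cells from W23 replicate 1 (x axis, same dye) and from W23 replicate 2 (y axis, other dye), in log2, for the 26708 probes well above background in all 3 samples; colour gives the number of probes per square on a log scale and dashed lines mark 2-fold. The cloud runs along the diagonal, which the shared heterozygote sample favours, with 2792 probes in the upper right and 2173 in the lower left corner.

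The reliability of a difference depended on the signal. The same probes were put in 4 bins of 6677 by mean level. In the dimmest bin 14.8% were higher in heterozygote cells and 6.16% lower, by 2-fold or more against both W23 samples, but the W23 samples also differed by 2-fold or more on 28.0%. In the brightest bin 799 probes were higher and 238 (3.56%) lower, and the W23 samples differed on 2.68%. The bins between held more lower than higher probes, with 7.07% higher and 12.1% lower in one and 8.03% higher and 10.7% lower in the brighter one. The median difference against replicate 1 ran from 0.28 in the dimmest bin through -0.13 and -0.03 to 0.46 in the brightest. After quantile normalization the median in the brightest bin was 0.03.

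**Figure D5:**
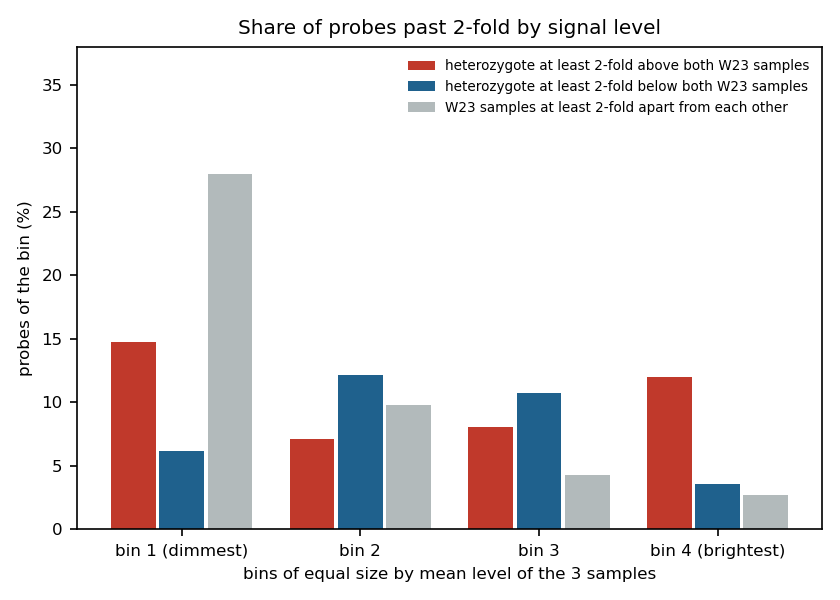
Share of probes in percent, in 4 bins of 6677 probes by mean level of the 3 dissected samples, that were at least 2-fold above both W23 samples (red), at least 2-fold below both (blue), or at least 2-fold apart between the W23 samples (grey). The grey bar falls from 28.0% to 2.68%, while the red bar is highest at 14.8% in the dimmest bin and the blue bar lowest at 3.56% in the brightest.

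The other samples place these differences. Among the 335 probes at least 4-fold higher, the mutant lay within 2-fold of the heterozygote on 200 (59.7%), and among the 235 at least 4-fold lower on 128 (54.5%), against 80.7% of all probes. The mutant shares the heterozygote's array, slide, scan and anther length. Of the 335, 243 (72.5%) were also at least 2-fold above both whole-anther samples and 27 (8.06%) at least 2-fold below both. Of the 235, 192 (81.7%) were also at least 2-fold below both whole-anther samples and 0 at least 2-fold above. Over all 26708 probes 20.9% were at least 2-fold above both whole-anther samples and 13.2% at least 2-fold below. For the probes at least 2-fold different from W23 cells the shares were 59.7% of the higher and 42.3% of the lower. These probes were chosen for an extreme heterozygote value, and the whole anthers share the arrays of the W23 cells.

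A second pair of one dye, mutant minus W23 replicate 2 in Cy5, holds none of the samples of the first pair, heterozygote minus W23 replicate 1 in Cy3. The pairs are not independent: heterozygote and mutant were read from the same array, and the W23 arrays share a slide. Over 24039 probes well above background in all 4 samples, 4146 were at least 2-fold higher in the heterozygote pair and 4409 in the mutant pair. Shared between them were 2000, which is 48.2% of the heterozygote list and 45.4% of the mutant list, where the mutant list covers 18.3% of all probes. Of the lower probes 1462 were shared, 50.7% of 2884 and 40.2% of 3634, where the mutant list covers 15.1%. Opposite differences past 2-fold were found for 127 of the higher and 121 of the lower probes of the heterozygote pair.

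Detection on 1 side only was common among dim probes. In heterozygote cells only, 1316 probes (4.04% of 32562) were well above background, and 1942 (5.96%) were in both W23 samples only. Of the first, 437 (33.2%) were well above background in both whole-anther samples and 499 in neither, and 316 (24.0%) were in mutant cells. Of the second, 1618 (83.3%) were well above background in both whole-anther samples and 577 (29.7%) in mutant cells. Over all probes of the array, 64.4% were well above background in mutant cells, and 84.3% and 82.5% in whole anthers replicates 1 and 2. The bound on the difference, which uses the mean over the W23 samples, reached 4-fold for 577 of the first and 170 of the second. These counts do not have equal room: the lowest level well above background was -5.00 in heterozygote cells, against -6.60 and -6.38 in W23 cells.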

How the data were processed

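Agilent Feature Extraction 10.5.1.1 produced the deposited intensity columns, per the file headers, with a Cy3 and a Cy5 signal for each spot in scanner units. The processed intensity used here was, per the file headers, background-subtracted and dye-normalized within its array. Per the submitters' processing notes, R 2.13 with limma 3.8.3 was used, and the authors' deposited value table holds 1 linear intensity column per sample, with scaling between arrays unknown.

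Here log2 was taken of the signal of each spot and the 75th percentile of each sample over probes was subtracted. Of 42034 probes, 23 were left out as scanner outliers and 0 were saturated. Tools were Python 3.11.15, pandas 2.3.3, numpy 2.4.6 and, for normexp, loess and quantile normalization, R 4.3.3 with limma 3.58.1. Scripts were tested on simulated data. A probe counted as different if it passed 2-fold or 4-fold the same way against both W23 samples. A bound on a fold sets the bright samples' mean against, for each dim sample, the higher of its lowest signal well above background and the probe's own signal.

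The named sequences are the 12 with the largest smaller difference in each direction, 1 probe per sequence, the 5 with the largest bound on each side, and every probe with a gene name. The comparison, the lists and the rules were chosen with earlier results of these data known. The probes lying beyond all samples of the other material, and their second probes, were looked at after the values were seen. Only 4 probes of 2 names matched the reference table, of the assembly Zm-B73-REFERENCE-NAM-5.0. The files give no product descriptions, so planned lists of histones, cell cycle, ribosomal proteins, low oxygen, redox and other groups could not be applied. The design text mentions individual plants but not whether the W23 replicates came from separate ones, so the gap between them may be technical.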

Additional observations from a re-analysis of the deposited data

Results flagged for a closer look

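A positive-control feature of the array, named ETG10_236652 and not identified in the files, carried signal although no comparison used it. Its level was 1.21 in heterozygote cells, against 1.13 and 1.39 in W23 pre-meiotic cells replicates 1 and 2, with 1.66 in mutant cells and -1.19 and -0.89 in whole anthers. The 12 features named RC, set beside it for background, reached at most -4.76 in heterozygote and W23 pre-meiotic cells and -4.54 in mutant cells.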

How the results depend on the processing

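Counts are given as higher then lower in heterozygote cells. At 2-fold against both W23 samples, 4980 and 2592 probes, the counts were 300 and 380 with normexp, 440 and 478 in the authors' deposited table, and 2726 higher without dye normalization. Restriction to probes well above background in all 3 samples left 2792 higher, no filter gave 8447, and centring within 4 bins of mean level, chosen after seeing the data, 2904. At 4-fold, 1074 and 342 probes, the counts were 661 and 674 with quantile normalization, 36 and 23 with normexp, 37 and 21 in the authors' deposited table, 443 higher without dye normalization and 335 higher with detection in all 3. Against W23 replicate 1 alone, 7637 and 4034 probes, they were 797 and 653 with normexp, 1124 and 743 in the authors' deposited table, 4715 higher with detection in all 3 and 11897 without a filter. Spike-in scaling, also chosen after seeing the data, gave 5414 and 5941, so the larger side changed. Without W23 replicate 1 or 2, the 2-fold counts were 7774 to 7889 higher and 4175 to 4305 lower, the 4-fold counts 2066 to 2292 and 693 to 750, and the counts detected on 1 side 2356 to 2872 for the heterozygote and 3290 to 4392 for W23; fewer samples to pass gives more probes by construction. The causes of the other changes were not tested.

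Of the 335 and 235 probes past 4-fold and detected in all 3 samples, 335 and 235 stayed on the same side under quantile normalization, and 326 and 235 with normexp, where 151 and 56 still reached 2-fold. In heterozygote cells no probe well above background lay under a level of -5.00, which limits how large a lower difference can be. No paired analysis was possible because the heterozygote has 1 sample and shares a single replicate number with W23.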
